A study of Mus musculus with 12 samples.

Results

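The receptors by which macrophages take up dying cells and modified lipoproteins were followed in cells washed from the mouse peritoneal cavity. The 10 genes were taken by name, with earlier results of these data known. They were the TAM receptor tyrosine kinases Tyro3, Axl and Mertk with their ligand Gas6, and the class A scavenger receptors Marco and Msr1. The others were the class B scavenger receptor Cd36, the stabilins Stab1 and Stab2, and the low-density lipoprotein receptor-related protein Lrp1. All 10 were among the 55401 genes of the deposited table. Of these, 9 passed the filter on low counts and were tested together with all 16915 genes that passed it. Stab2 did not pass and is given as counts.

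Bulk RNA was sequenced from the peritoneal lavage of C57BL/6J mice, with 4 libraries in each of 3 groups, which the submitters call biological replicates. The ID8-FSHR mice had received an intraperitoneal injection of the line labelled ID8 (defb29/Vegf-a) FSHR, and the ID8 mice the line labelled ID8 (defb29/Vegf-a). The uninjected mice had received no cells, and their libraries are labelled endogenous cells. ID8 derives from transformed ovarian surface epithelium of the mouse, both derivatives carry Defb29 and Vegf-a by their label, and the first carries the follicle-stimulating hormone receptor besides. Lavage with 8 mL of saline was done on day 7. The number of tumour cells is given, in units of 1e6 cells, as 5 in the sample protocol and as 4 in the series text. The labels give no age or sex of the mice, no promoter for the added genes, and do not say whether the lines are clonal. Total counts per library were 48355885 to 57636459 in ID8-FSHR, 47419608 to 64333677 in ID8 and 50327658 to 57991979 in uninjected mice. Defb29 had 8.41 to 23.8 CPM (counts per 1000000 of the TMM effective library size) in ID8-FSHR libraries and 20.8 to 29.1 CPM in ID8 libraries, against 0 counts in uninjected libraries. Fshr had 7 counts in ID8-FSHR replicate 4, 2 in ID8-FSHR replicate 3 and 2 in ID8 replicate 3, against 0 in the other 9 libraries, so this row of the mouse gene did not check the FSHR label.

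Dying cells expose phosphatidylserine on their outer membrane. Bridging proteins such as Gas6 and protein S (Pros1) bind it and activate some or all of the TAM kinases. Mertk is known as the main TAM receptor for engulfment by resident macrophages, while Axl is known to be induced by inflammatory and interferon signals. Scavenger receptors bind polyanionic ligands, including oxidised lipoproteins, bacterial surfaces and dying cells. The peritoneal cavity holds large resident macrophages that depend on the transcription factor Gata6, and these cells are known for the uptake of dying cells.

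The lavage was a mixture of cells, and its macrophage and tumour content differed between the groups. The 8 pan-macrophage markers (Csf1r, Adgre1 and Itgam among them) were all detected and summed to 4043 to 6397 CPM in ID8-FSHR libraries and 3813 to 4690 CPM in ID8 libraries, against 6800 to 8145 CPM in uninjected libraries. The 12 mesothelial and ID8 tumour markers summed to 990 to 2546 CPM in ID8-FSHR libraries and 2876 to 3620 CPM in ID8 libraries, against 21.1 to 24.1 CPM in uninjected libraries. ID8-FSHR replicate 2 stood apart, with the lowest tumour marker sum and the highest pan-macrophage sum of the 8 tumour libraries. On the first principal component, with 81.0% of the variance, it scored -43.2, against -96.1 to -87.4 in the other 7 tumour libraries and 161 to 174 in the uninjected libraries. Fewer cells of a type and less RNA per cell cannot be told apart in such bulk samples. For this reason each tested member is also given relative to the geometric mean of the 8 pan-macrophage genes in the same library. These 8 genes did not move as a block: the log2 fold change was 1.14 for Fcgr1 and -0.82 for Cybb for ID8-FSHR versus uninjected, and 0.73 for Fcgr1 and -1.04 for Cybb for ID8 versus uninjected. Fcgr1 was the highest of the 8, and the lowest were at -1.39 for ID8-FSHR versus uninjected and -1.31 for ID8 versus uninjected. Scaling to the 8 pan-macrophage genes moved the median log2 fold change of all tested genes by 0.51 for ID8-FSHR versus uninjected, by 0.68 for ID8 versus uninjected and by -0.17 for ID8-FSHR versus ID8.

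The 3 TAM receptors did not change in the same direction, and their promoters are therefore shown, together with that of Marco, the member with the largest difference in mean level between ID8-FSHR and ID8. The stretches run from 250 bases before to 50 bases after the RefSeq start site on GRCm38.p6, 5′ to 3′ on the gene's strand, and capitals mark matches to the motifs named after them.
Mertk, chr2:128698665-128698964, plus strand: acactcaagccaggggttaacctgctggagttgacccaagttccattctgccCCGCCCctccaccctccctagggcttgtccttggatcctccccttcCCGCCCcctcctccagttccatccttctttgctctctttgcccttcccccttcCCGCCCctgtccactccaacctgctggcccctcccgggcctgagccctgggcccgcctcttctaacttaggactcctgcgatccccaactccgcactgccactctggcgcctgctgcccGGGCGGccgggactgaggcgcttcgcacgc
Axl, chr7:25788684-25788983, minus strand: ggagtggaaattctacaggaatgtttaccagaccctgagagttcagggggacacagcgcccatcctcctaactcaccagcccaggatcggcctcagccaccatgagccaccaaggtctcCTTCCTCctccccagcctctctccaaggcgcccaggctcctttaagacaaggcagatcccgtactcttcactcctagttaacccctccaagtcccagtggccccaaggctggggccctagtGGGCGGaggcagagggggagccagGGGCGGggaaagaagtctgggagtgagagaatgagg
Tyro3, chr2:119799264-119799563, plus strand: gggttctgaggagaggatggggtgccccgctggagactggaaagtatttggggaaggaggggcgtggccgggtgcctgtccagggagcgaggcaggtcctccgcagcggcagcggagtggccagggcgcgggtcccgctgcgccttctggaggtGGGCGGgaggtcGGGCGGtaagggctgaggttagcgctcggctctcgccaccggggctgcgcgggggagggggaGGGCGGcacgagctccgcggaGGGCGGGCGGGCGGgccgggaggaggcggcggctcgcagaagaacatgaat
Marco, chr1:120504975-120505274, minus strand: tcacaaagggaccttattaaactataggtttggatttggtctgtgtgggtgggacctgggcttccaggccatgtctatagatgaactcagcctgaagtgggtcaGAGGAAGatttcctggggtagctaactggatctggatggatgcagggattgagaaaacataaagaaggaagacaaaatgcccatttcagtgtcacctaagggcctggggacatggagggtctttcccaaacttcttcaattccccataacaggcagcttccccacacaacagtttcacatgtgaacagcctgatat
Of the 10 genes, 9 had a promoter in the RefSeq table, and Msr1 was not among them. Each motif was searched on both strands, so that capitals can be the reverse complement of the letters given here. A GC box (GGGCGG) matched in 6 of the 9 promoters and in 35.7% of the 32851 promoters of the same length. Mertk held 4 matches, Axl 2 and Tyro3 6, of which those around its start site overlap each other. The PU.1 motif (GAGGAAG), named for a macrophage transcription factor, matched in the promoters of Axl, at position -131, and Marco, at position -146, and in 13.6% of all promoters. The AP-1 motif (TGANTCA) matched in 0 of the 9, against 7.81% of all promoters. The motif of the GATA factors (AGATAAG) matched in 0 of the 9, against 3.04% of all promoters. The TATA box (TATAAA) matched in 0 of the 9 as well, against 13.6% of all promoters. The promoter of Tyro3 had 73.3% GC and 31 CpG dinucleotides, that of Mertk 66% and 14, that of Axl 60.3% and 6, and that of Marco 47.3% and 0, beside medians of 52.7% and 7 over all promoters. These are letters in a window, and no binding was measured.

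Against uninjected mice, the members split into a small group that was higher and a larger group that was lower. For ID8-FSHR versus uninjected, 3 of the 9 tested members were higher (Tyro3, Axl and Marco) and 6 were lower (Mertk, Gas6, Msr1, Cd36, Stab1 and Lrp1), by edgeR's quasi-likelihood test with a Benjamini-Hochberg adjusted p under 0.05. In that comparison 64.5% of all tested genes were called, 33.9% as higher and 30.6% as lower, so that being called was common among genes at large. For ID8 versus uninjected, 2 were higher (Tyro3 and Axl), the same 6 were lower, and Marco was not called; 64.1% of all tested genes were called, 32.7% as higher and 31.4% as lower. The median log2 fold change of the 9 members was -0.62 for ID8-FSHR versus uninjected and -0.69 for ID8 versus uninjected, beside 0.00 and -0.03 over all tested genes. For ID8-FSHR versus ID8, 1 of 9 was called, Stab1, as lower, beside 11.6% of all tested genes, 6.04% as higher and 5.56% as lower, and the median was -0.04 beside -0.01. Both comparisons with uninjected mice use the same 4 uninjected libraries. Scaled to the pan-macrophage genes, 3 members were higher and 3 lower for ID8-FSHR versus uninjected, where 59.4% of all genes were called, 48.9% as higher and 10.5% as lower. On that scale 3 were higher and 2 lower for ID8 versus uninjected, where 65.2% were called, 56.8% as higher and 8.35% as lower. For ID8-FSHR versus ID8 it was again Stab1 alone, as lower, where 3.29% of all genes were called, 1.8% as higher and 1.5% as lower.

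The groups did not overlap for 3 higher and 6 lower of the 9 tested members in ID8-FSHR versus uninjected libraries, where 57% of all tested genes did not overlap, 29.6% as higher and 27.4% as lower. They did not overlap for 3 higher and 5 lower in ID8 versus uninjected libraries, where 62.5% did not, 31.8% as higher and 30.7% as lower. Between ID8-FSHR and ID8 libraries 0 higher and 1 lower, Gas6, did not overlap, where 18.5% did not, 7.74% as higher and 10.8% as lower.

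**Figure D1:**
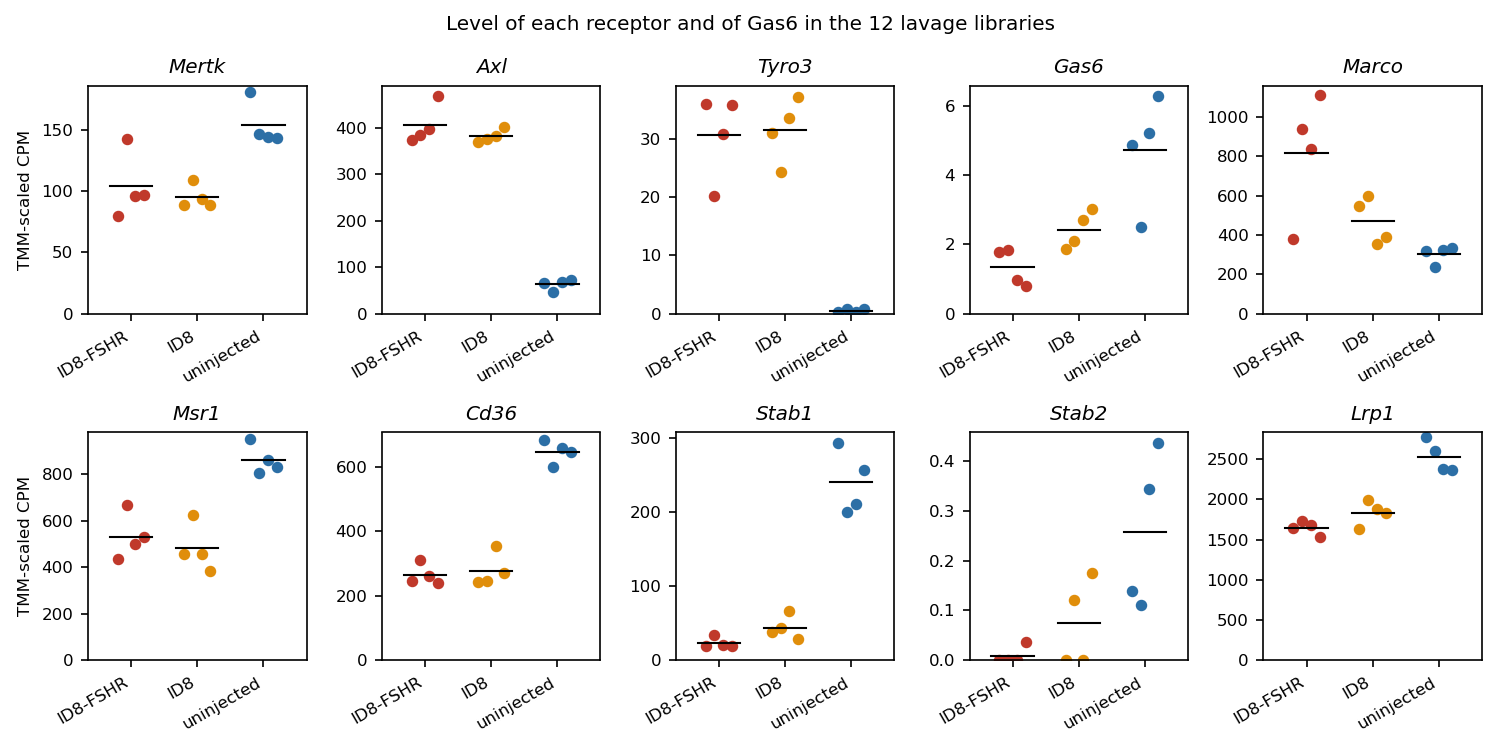
Level of each of the 10 genes in CPM (vertical axes, linear and starting at 0) in every library, with points for libraries and lines for the mean of 4. Tyro3 and Axl lie higher in every tumour library than in any uninjected library, while Mertk, Msr1, Cd36, Stab1 and Lrp1 lie lower in every tumour library.

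Axl, the TAM kinase with the highest affinity for Gas6, rose strongly in both tumour groups. It had 374, 385, 397 and 469 CPM in ID8-FSHR libraries and 369, 377, 383 and 402 CPM in ID8 libraries, against 66.7, 46.6, 68.1 and 71.8 CPM in uninjected libraries. Every tumour library was thus above every uninjected library, and the tumour libraries lay close together. The means were 406 ± 43.1 CPM in ID8-FSHR and 383 ± 14.2 CPM in ID8, against 63.3 ± 11.4 CPM in uninjected mice (SD, n = 4 each), which is a log2 fold change of 2.68 for ID8-FSHR versus uninjected (6.42-fold, SE 0.13, adjusted p = 3.47e-09, edgeR) and of 2.60 for ID8 versus uninjected (6.05-fold, SE 0.13, adjusted p = 3.45e-09, edgeR). ID8-FSHR and ID8 overlapped, with a log2 difference of 0.09 (95% interval -0.17 to 0.34, edgeR adjusted p = 0.673). Relative to the pan-macrophage genes the log2 fold changes were 3.21 for ID8-FSHR versus uninjected and 3.30 for ID8 versus uninjected.

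Tyro3, the TAM kinase best known from neurons and dendritic cells, was barely detected in uninjected mice and had the largest fold of the members. It had 36.0, 20.2, 30.8 and 35.8 CPM in ID8-FSHR libraries and 31.0, 24.2, 33.6 and 37.2 CPM in ID8 libraries, against 0.237, 0.811, 0.384 and 0.740 CPM in uninjected libraries, which rest on 12, 44, 19 and 34 counts. The lowest tumour library was ID8-FSHR replicate 2, which also had the lowest tumour marker sum. Tyro3 averaged 30.7 ± 7.37 CPM in ID8-FSHR and 31.5 ± 5.48 CPM in ID8, against 0.543 ± 0.277 CPM in uninjected mice (SD, n = 4 each). On the log2 scale the difference was 5.81 for ID8-FSHR versus uninjected (56.3-fold, SE 0.32, edgeR adjusted p = 1.04e-08). The value for ID8 versus uninjected mice was 5.85 (57.7-fold, SE 0.32, edgeR adjusted p = 8.86e-09). ID8-FSHR and ID8 again overlapped, with a log2 difference of -0.04 (95% interval -0.56 to 0.48, edgeR adjusted p = 0.937). Relative to the pan-macrophage genes the log2 fold changes of Tyro3 were 6.36 for ID8-FSHR versus uninjected and 6.54 for ID8 versus uninjected. In CPM per kilobase of merged exons Tyro3 stayed well below Axl, at 4.95 ± 1.19 for Tyro3 and 80.7 ± 8.56 for Axl in ID8-FSHR mice (SD, n = 4). The mesothelial and ID8 tumour markers rose with both receptors (10 of 12 higher for ID8-FSHR versus uninjected and 11 of 12 for ID8 versus uninjected), as did fibroblast markers (5 and 6 of 6 tested). The 7 listed fibroblast markers summed to 188 to 406 CPM in ID8-FSHR libraries and 441 to 573 CPM in ID8 libraries, against 2.78 to 13.7 CPM in uninjected libraries. In ID8-FSHR replicate 2, with the lowest tumour marker sum, Axl was not lowest but had 385 CPM, within the 374 to 469 CPM of its group. The part of tumour or stromal cells in the Axl and Tyro3 levels was not tested.

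Mertk fell in both tumour groups. It had 79.9, 143, 95.6 and 96.8 CPM in ID8-FSHR libraries and 88.3, 109, 93.5 and 88.7 CPM in ID8 libraries, against 180, 146, 144 and 143 CPM in uninjected libraries. No tumour library reached the lowest uninjected library, though ID8-FSHR replicate 2 came close to it. The log2 fold change was -0.56 for ID8-FSHR versus uninjected (1.48-fold lower, SE 0.15, edgeR adjusted p = 0.00544). For ID8 versus uninjected it was -0.69 (1.62-fold lower, SE 0.15, edgeR adjusted p = 0.00137). The log2 difference between ID8-FSHR and ID8 was 0.13 (95% interval -0.20 to 0.46, edgeR adjusted p = 0.607). Set against the pan-macrophage genes, Mertk was 109 ± 4.05 in ID8-FSHR and 115 ± 3.49 in ID8, against 117 ± 9.08 in uninjected mice (scaled CPM, SD, n = 4 each). On that scale the groups overlapped, and the log2 fold changes were -0.10 for ID8-FSHR versus uninjected (edgeR adjusted p = 0.492) and -0.01 for ID8 versus uninjected (edgeR adjusted p = 0.928). ID8-FSHR replicate 2, with the highest Mertk level of the tumour libraries, had the highest pan-macrophage sum among them, 6397 CPM.

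The make-up of TAM receptor RNA differed between tumour and uninjected mice in the same way in every library. As a share of the summed counts per kilobase of the 3 receptors, Axl made up 73.7% ± 3.96 in ID8-FSHR and 73.8% ± 1.26 in ID8 libraries, against 26.2% ± 4.08 in uninjected libraries (SD, n = 4 each). Mertk made up 21.8% ± 5.06 in ID8-FSHR and 21.2% ± 2.05 in ID8 libraries, against 73.6% ± 4.07 in uninjected libraries. Tyro3 made up 4.56% ± 1.23 in ID8-FSHR and 4.93% ± 0.815 in ID8 libraries, against 0.189% ± 0.107 in uninjected libraries. The ranges of the tumour and uninjected libraries did not overlap for any of the 3 shares: Axl made up 67.9% to 76.8% in the tumour libraries and 21.4% to 30.1% in the uninjected ones. These shares are ratios within a library and do not depend on how libraries are scaled to each other; they are given as a description.

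**Figure D2:**
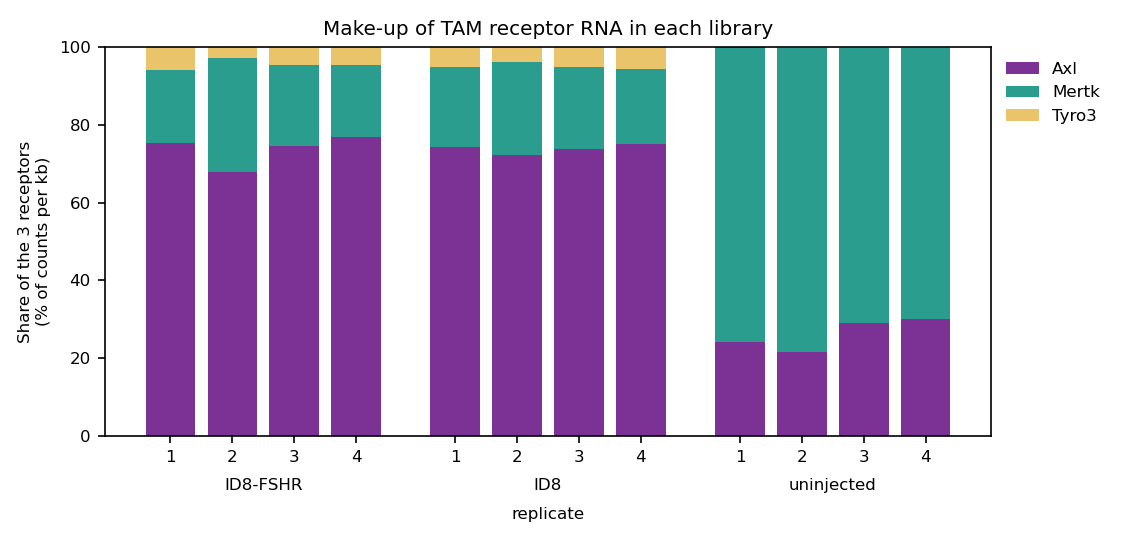
Stacked bars show the share of Axl, Mertk and Tyro3 in their summed counts per kilobase (vertical axis, percent) for each library of the 3 groups. Axl makes up most of the RNA in the 8 tumour libraries and Mertk most of it in the 4 uninjected libraries.

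Gas6, the vitamin K-dependent ligand of all 3 kinases, had few counts in the lavage. It had 1.77, 1.85, 0.961 and 0.803 CPM in ID8-FSHR libraries and 1.86, 2.10, 2.71 and 3.01 CPM in ID8 libraries, against 4.85, 2.51, 5.21 and 6.29 CPM in uninjected libraries. Every ID8-FSHR library lay below every uninjected library, whereas ID8 and uninjected libraries overlapped. It changed by a log2 fold of -1.80 for ID8-FSHR versus uninjected (3.49-fold lower, SE 0.33, edgeR adjusted p = 0.000394). For ID8 mice against uninjected mice it was -0.96 (1.95-fold lower, SE 0.32, edgeR adjusted p = 0.0195). The first call held relative to the pan-macrophage genes (-1.29, edgeR adjusted p = 0.00374), though on that scale the groups overlapped. The second call was lost with library totals alone (-0.77, edgeR adjusted p = 0.0526), relative to the pan-macrophage genes (-0.25, adjusted p = 0.533), and without ID8 replicate 1 (adjusted p = 0.0590), ID8 replicate 2 (adjusted p = 0.0509) or uninjected replicate 4 (adjusted p = 0.0644). ID8-FSHR libraries were all below ID8 libraries, but the nearest were only just apart, at 1.85 and 1.86 CPM. The log2 difference of -0.84 (95% interval -1.56 to -0.12) did not pass adjustment over all genes (edgeR adjusted p = 0.116). Relative to the pan-macrophage genes these 2 groups overlapped (-1.04, edgeR adjusted p = 0.112).

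Marco, a collagenous scavenger receptor that binds bacteria and particles, rose in ID8-FSHR mice and was not called in ID8 mice. It had 382, 936, 835 and 1112 CPM in ID8-FSHR libraries and 547, 597, 353 and 390 CPM in ID8 libraries, against 317, 235, 325 and 331 CPM in uninjected libraries. All tumour libraries were above all uninjected libraries, but ID8-FSHR replicate 1 lay far below the other 3 of its group and within the range of ID8. On the log2 scale the difference was 1.43 for ID8-FSHR versus uninjected (SE 0.27, edgeR adjusted p = 0.000506), and 1.91 relative to the pan-macrophage genes (edgeR adjusted p = 3.27e-06). The value for ID8 versus uninjected mice was 0.64 (SE 0.27, edgeR adjusted p = 0.0524), which missed the threshold. It passed with DESeq2 (adjusted p = 0.0145), with a fit of the 2 groups alone (edgeR adjusted p = 0.00404), relative to the pan-macrophage genes (1.32, edgeR adjusted p = 0.000101), with median-of-ratios scaling (edgeR adjusted p = 0.0338) or library totals (adjusted p = 0.0121), and without ID8-FSHR replicate 1 (adjusted p = 0.00576), ID8-FSHR replicate 4 (adjusted p = 0.0429) or ID8 replicate 3 (adjusted p = 0.0357). Between ID8-FSHR and ID8 the log2 difference was 0.79 (95% interval 0.20 to 1.38, edgeR adjusted p = 0.0768), with DESeq2 adjusted p = 0.0239, and without ID8-FSHR replicate 1 it was 1.03 (edgeR adjusted p = 0.00339). The sum of the 5 NK cell markers (Ncr1, Klrb1c, Gzma, Prf1 and Nkg7) ranked the ID8-FSHR libraries as Marco did. This was 1 of 15 marker lists, and 4 libraries can share an order by chance. Among ID8 libraries the order differed, with Marco highest in replicate 2 and the NK cell sum in replicate 1. Of 7 T cell markers, 4 were also higher in ID8-FSHR than in ID8. Their sum was highest in ID8-FSHR replicate 2, whereas Marco was highest in replicate 4. All 5 NK cell markers were higher in ID8-FSHR than in ID8 by edgeR, beside 6.04% of all tested genes. Relative to the pan-macrophage genes 1 of the 5 was higher, beside 1.8%. The 5 markers summed to 18.4, 124, 64.1 and 166 CPM in ID8-FSHR replicates 1 to 4 and to 9.42 to 33.8 CPM in ID8 libraries, against 13.2 to 21.3 CPM in uninjected libraries. All 5 were detected in each group, and their part in the Marco level was not tested.

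Msr1, the other class A receptor and a receptor for modified lipoproteins, moved the opposite way. It had 434, 667, 499 and 530 CPM in ID8-FSHR libraries and 459, 627, 459 and 386 CPM in ID8 libraries, against 952, 806, 864 and 830 CPM in uninjected libraries. All 8 tumour libraries were below all 4 uninjected libraries. The log2 fold change was -0.70 for ID8-FSHR versus uninjected (1.62-fold lower, SE 0.15, edgeR adjusted p = 0.00123). For ID8 versus uninjected it was -0.84 (1.79-fold lower, SE 0.15, edgeR adjusted p = 0.000305). Scaled to the pan-macrophage genes these values were -0.22 (edgeR adjusted p = 0.117) and -0.17 (edgeR adjusted p = 0.201). As a share of the counts per kilobase of Marco and Msr1 together, Marco made up 82.1% ± 5.61 in ID8-FSHR and 76.0% ± 3.33 in ID8 libraries, against 53.4% ± 3.45 in uninjected libraries (SD, n = 4 each).

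Cd36, which binds oxidised low-density lipoprotein and thrombospondin and takes up long-chain fatty acids, fell in both tumour groups. It had 246, 310, 263 and 238 CPM in ID8-FSHR libraries and 241, 245, 354 and 269 CPM in ID8 libraries, against 684, 598, 657 and 646 CPM in uninjected libraries. The tumour groups lay on top of each other and far below the uninjected libraries. It changed by a log2 fold of -1.29 for ID8-FSHR versus uninjected (2.45-fold lower, SE 0.12, edgeR adjusted p = 1.22e-06). For ID8 mice against uninjected mice it was -1.22 (2.33-fold lower, SE 0.12, edgeR adjusted p = 2.05e-06). Relative to the pan-macrophage genes the fall was smaller and still called, at -0.80 (edgeR adjusted p = 0.000358) and -0.52 (edgeR adjusted p = 0.00768). The platelet and megakaryocyte markers, of cells that also carry Cd36, summed to 35.8 to 91.5 CPM in ID8-FSHR libraries and 81.1 to 122 CPM in ID8 libraries, against 295 to 395 CPM in uninjected libraries, with the defining marker Gp9 at 0 in ID8 and uninjected libraries. Of these 4 markers 2 were tested, and they went opposite ways. For ID8-FSHR versus uninjected 1 was called lower (-2.59) and 1 higher (0.88), and for ID8 versus uninjected 1 lower (-1.81) and 1 higher (1.07). The part of platelets and megakaryocytes in the Cd36 level was not tested.

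Stab1, an endocytic receptor of macrophages and sinusoidal endothelium that clears acetylated lipoprotein and extracellular matrix fragments, had the largest fall. It had 18.9, 34.1, 19.9 and 18.7 CPM in ID8-FSHR libraries and 37.5, 43.1, 66.2 and 29.0 CPM in ID8 libraries, against 293, 200, 210 and 256 CPM in uninjected libraries. The tumour groups were far below the uninjected one, and ID8-FSHR lay below ID8 except for replicate 2. The means were 22.9 ± 7.48 CPM in ID8-FSHR and 43.9 ± 15.9 CPM in ID8, against 240 ± 43.0 CPM in uninjected mice (SD, n = 4 each). On the log2 scale the difference was -3.39 for ID8-FSHR versus uninjected (10.5-fold lower, SE 0.27, edgeR adjusted p = 2.49e-07). The value for ID8 versus uninjected mice was -2.45 (5.46-fold lower, SE 0.26, edgeR adjusted p = 3.28e-06). Set against the pan-macrophage genes Stab1 still fell, with log2 fold changes of -2.93 for ID8-FSHR (edgeR adjusted p = 8.00e-09) and -1.76 for ID8 (edgeR adjusted p = 1.24e-06). The 10 markers of large peritoneal macrophages (Gata6, Icam2, Vsig4, Selp, Tgfb2, Alox15, Prg4, Naip1, Cxcl13 and F5) summed to 3882 to 9259 CPM in ID8-FSHR libraries and 7551 to 9690 CPM in ID8 libraries, against 18258 to 22336 CPM in uninjected libraries. Of these, Gata6 itself was higher, by 0.58 for ID8-FSHR versus uninjected (edgeR adjusted p = 4.84e-05) and by 0.85 for ID8 versus uninjected (edgeR adjusted p = 1.54e-06), while 9 and 8 of the others were lower. The 7 endothelial markers summed to 44.9 to 95.9 CPM in ID8-FSHR libraries and 60.1 to 98.8 CPM in ID8 libraries, against 172 to 243 CPM in uninjected libraries, with Emcn at 0 in ID8-FSHR, Tie1 at 0 in ID8, and Emcn and Tek at 0 in uninjected mice. Of these 7 markers 4 were tested, with 1 called higher and 2 lower in each comparison with uninjected mice. The higher one was at 1.24 for ID8-FSHR versus uninjected and at 1.36 for ID8 versus uninjected. The part of large peritoneal macrophages or endothelial cells in the Stab1 level was not tested.

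Stab1 was the member that differed between the tumour lines, at a log2 fold change of -0.94 for ID8-FSHR versus ID8 (1.92-fold lower, SE 0.25, 95% interval -1.49 to -0.39, edgeR adjusted p = 0.0315). Scaled to the pan-macrophage genes it was -1.17 (edgeR adjusted p = 0.00242), and the groups no longer overlapped. The call was lost with no filter (edgeR adjusted p = 0.101), with a fit of the 2 groups alone (adjusted p = 0.0723), and without ID8-FSHR replicate 3 (adjusted p = 0.0741), ID8-FSHR replicate 4 (adjusted p = 0.0893), ID8 replicate 2 (adjusted p = 0.0530) or ID8 replicate 3 (-0.68, adjusted p = 0.0989). Msr1, Cd36 and Lrp1 overlapped between ID8-FSHR and ID8 and were not called. Their log2 differences for ID8-FSHR versus ID8 were 0.14 for Msr1 (95% interval -0.18 to 0.46), -0.07 for Cd36 (95% interval -0.34 to 0.19) and -0.15 for Lrp1 (95% interval -0.34 to 0.03).

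Stab2, the related stabilin of sinusoidal endothelium that clears hyaluronan, was at the edge of detection. It had 0, 0, 0 and 2 counts in ID8-FSHR libraries and 0, 6, 0 and 10 counts in ID8 libraries, against 7, 6, 17 and 20 counts in uninjected libraries. A count of 0 allows up to 3 counts, which is 0.0444 to 0.0653 CPM across the libraries. Without the filter on low counts the log2 fold change was -4.48 for ID8-FSHR versus uninjected (edgeR adjusted p = 0.0136) and -1.76 for ID8 versus uninjected (edgeR adjusted p = 0.239), and these fitted values depend on the prior count. Stab1 thus carried nearly all stabilin RNA: in uninjected mice it had 23.3 ± 4.18 CPM per kilobase, against 0.0293 ± 0.0180 CPM per kilobase for Stab2 (SD, n = 4).

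Lrp1, a large endocytic receptor that with calreticulin and C1q on dying cells takes part in engulfment, fell in both tumour groups. It had 1649, 1727, 1682 and 1538 CPM in ID8-FSHR libraries and 1632, 1992, 1881 and 1828 CPM in ID8 libraries, against 2771, 2598, 2377 and 2365 CPM in uninjected libraries. The groups of tumour mice lay below the uninjected group without overlap. The log2 fold change was -0.62 for ID8-FSHR versus uninjected (1.53-fold lower, SE 0.08, edgeR adjusted p = 3.08e-05). For ID8 versus uninjected it was -0.46 (1.38-fold lower, SE 0.08, edgeR adjusted p = 0.000339). Relative to the pan-macrophage genes the values were -0.10 (edgeR adjusted p = 0.540) and, with the sign turned, 0.22 (edgeR adjusted p = 0.187). Per kilobase, Lrp1 had 93.1 ± 4.54 CPM in ID8-FSHR and 103 ± 8.51 CPM in ID8, against 143 ± 11.0 CPM in uninjected mice (SD, n = 4 each).

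The order of the members by level changed with the tumour. In CPM per kilobase, ID8-FSHR mice had Marco at the top with 424 ± 162, then Lrp1 with 93.1 ± 4.54, Msr1 with 83.9 ± 15.5, Axl with 80.7 ± 8.56 and Cd36 with 73.5 ± 8.96 (SD, n = 4). The last 4 of these lie within about their spread of their neighbours. In ID8 mice Marco had 245 ± 61.6, Lrp1 103 ± 8.51, Cd36 77.3 ± 14.7, Axl 76.1 ± 2.82 and Msr1 76.1 ± 16.1, with the last 3 within their spread. In uninjected mice Cd36 led with 180 ± 10.0, followed by Marco with 157 ± 23.4, Lrp1 with 143 ± 11.0 and Msr1 with 136 ± 10.1, where neighbours again lie within their spread, and then by Mertk with 35.4 ± 4.17, Stab1 with 23.3 ± 4.18 and Axl with 12.6 ± 2.26 (SD, n = 4). Tyro3, Gas6 and Stab2 stood lowest in uninjected mice.

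**Figure D3:**
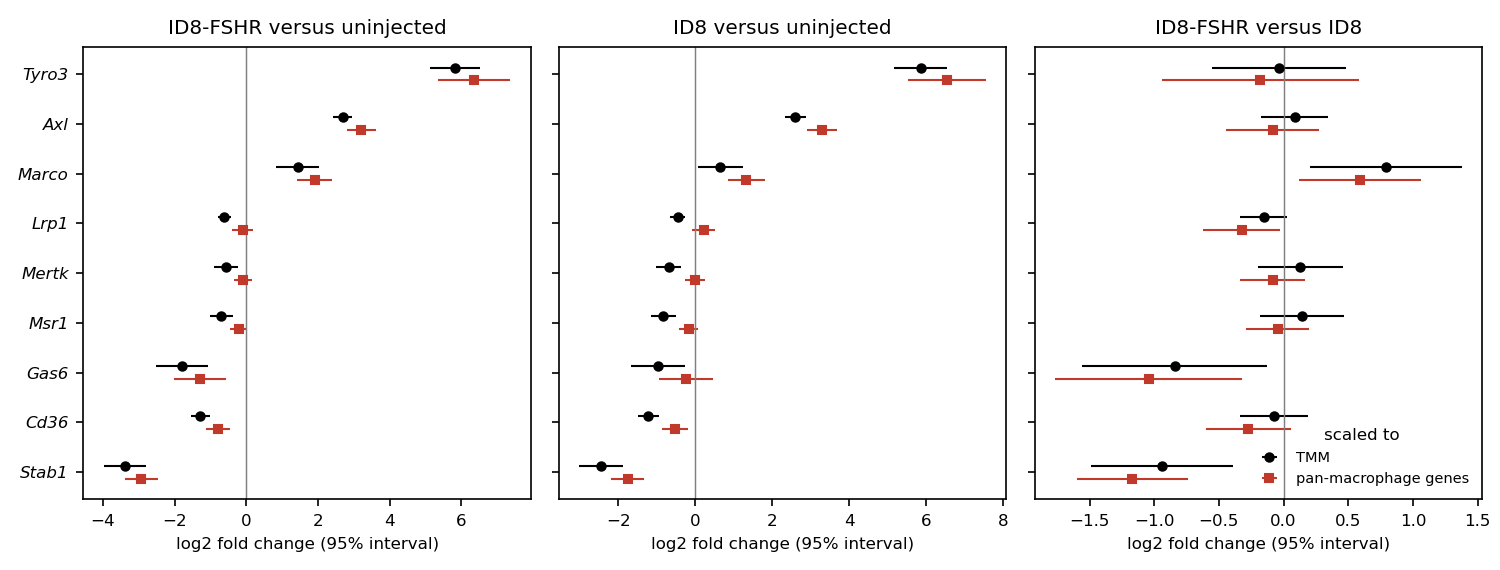
Log2 fold changes (horizontal axes, with 95% intervals from edgeR; the 3 axes differ in range) of the 9 tested members in the 3 comparisons, scaled by TMM (black circles) and to the 8 pan-macrophage genes (red squares). Tyro3 and Axl lie to the right and Stab1 and Cd36 to the left of 0 on both scales against uninjected mice, while Mertk, Msr1 and Lrp1 lie near 0 relative to the pan-macrophage genes.

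Mertk, Msr1 and Lrp1 kept near each other across libraries. The root mean square difference of centred log2 CPM over the 12 libraries was 0.129 between Mertk and Msr1, 0.206 between Mertk and Lrp1 and 0.246 between Msr1 and Lrp1, the smallest of all pairs, and 4.23 between Tyro3 and Stab1, the largest. Among 9532 genes of at least moderate level, the nearest patterns by the same measure were Fes (0.0750) and Mpp1 (0.0768) for Mertk, and Ptgr1 (0.215) for Axl. For Tyro3 they were Farp1 (0.257) and Pkia (0.356), for Gas6 Fcrls (0.320) and Tha1 (0.358), and for Marco Wars (0.187) and Cfb (0.187). For Msr1 they were Stx2 (0.100) and Slc35c2 (0.105), for Cd36 N4bp2l1 (0.0897) and Ssh2 (0.107), for Stab1 Igkv1-117 (0.379) and Cxcl12 (0.388), and for Lrp1 Irf3 (0.0634) and Arsk (0.0650). The libraries share 3 groups, so likeness over them is mostly likeness of group means.

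**Figure D4:**
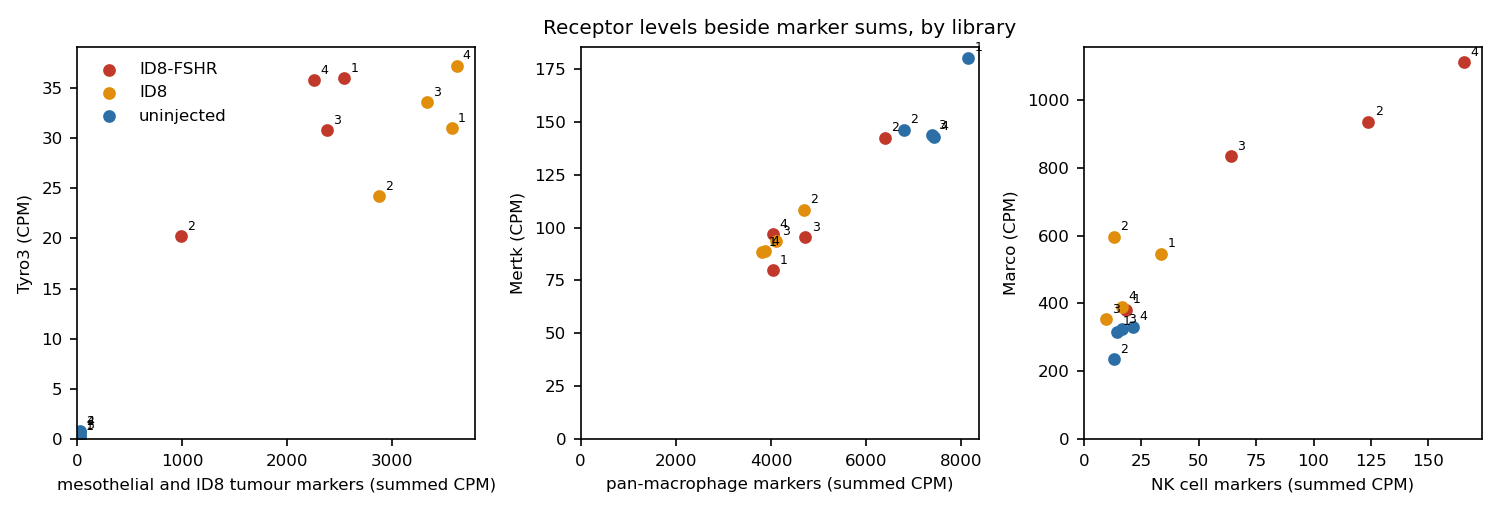
Tyro3 beside the summed mesothelial and ID8 tumour markers, Mertk beside the summed pan-macrophage markers, and Marco beside the summed NK cell markers, each point a library with its replicate number and all axes in CPM. ID8-FSHR replicate 2 has the lowest Tyro3 level and tumour marker sum of the tumour libraries and the highest Mertk level and pan-macrophage sum among them, and ID8-FSHR replicate 1 has the lowest Marco level and NK cell sum of its group.

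The other genes of the pathway were read from 7 lists, with 61 of their 65 genes tested, and the balance of higher and lower calls turned with the scaling. For ID8-FSHR versus uninjected 17 were higher and 22 lower (27.9% and 36.1%, beside 33.9% and 30.6% of all tested genes), and relative to the pan-macrophage genes 26 were higher and 8 lower (42.6% and 13.1%, beside 48.9% and 10.5%). For ID8 versus uninjected 12 were higher and 25 lower (19.7% and 41%, beside 32.7% and 31.4%), and relative to the pan-macrophage genes 32 were higher and 8 lower (52.5% and 13.1%, beside 56.8% and 8.35%). With library totals alone the counts were 21 higher and 14 lower for ID8-FSHR versus uninjected and 18 higher and 15 lower for ID8 versus uninjected. Between the tumour lines, for ID8-FSHR versus ID8, 4 were higher and 6 lower (6.56% and 9.84%, beside 6.04% and 5.56% of all tested genes). Relative to the pan-macrophage genes 1 was higher and 1 lower there (1.64% each, beside 1.8% and 1.5%). The shares of all tested genes given here for TMM and for the pan-macrophage scale apply to each list below as well.

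Among 8 bridging molecules and opsonins, all tested, 1 was higher and 6 lower for ID8-FSHR versus uninjected, and 2 were higher and 6 lower for ID8 versus uninjected, with medians of -0.56 and -0.48. On the pan-macrophage scale this list had 2 higher and 2 lower for ID8-FSHR versus uninjected, beside 48.9% and 10.5% of all tested genes. For ID8 versus uninjected it had 3 higher and 2 lower, beside 56.8% and 8.35%. Pros1, the other TAM ligand besides Gas6, fell to 243 ± 48.3 CPM in ID8-FSHR and 229 ± 13.8 CPM in ID8, against 486 ± 43.1 CPM in uninjected mice (SD, n = 4 each), with edgeR adjusted p = 1.20e-05 and 5.83e-06. Edil3, a secreted bridge between phosphatidylserine and integrins, fell to 3.05 ± 1.11 CPM in ID8-FSHR and 5.37 ± 2.08 CPM in ID8, against 27.4 ± 2.31 CPM in uninjected mice. Mfge8, which bridges phosphatidylserine to the alpha v integrins, rose to 76.1 ± 20.1 CPM in ID8-FSHR and 103 ± 12.5 CPM in ID8, against 52.9 ± 4.54 CPM in uninjected mice. C1qa, a subunit of the complement opsonin C1q, fell by 0.59 on the log2 scale for ID8-FSHR versus uninjected (edgeR adjusted p = 0.00273), a call that was lost relative to the pan-macrophage genes (-0.12, edgeR adjusted p = 0.352).

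Of 10 other phosphatidylserine receptors and integrin partners, 8 were tested, with 2 higher and 5 lower for ID8-FSHR versus uninjected and 3 higher and 4 lower for ID8 versus uninjected, at medians of -0.38 and -0.66. Relative to the pan-macrophage genes, 2 were higher and 1 lower for ID8-FSHR versus uninjected and 3 higher and 2 lower for ID8 versus uninjected. Timd4, a phosphatidylserine receptor that marks resident peritoneal macrophages, fell to 446 ± 96.5 CPM in ID8-FSHR and 369 ± 52.5 CPM in ID8, against 800 ± 65.3 CPM in uninjected mice (SD, n = 4 each). For ID8-FSHR versus uninjected that call was lost relative to the pan-macrophage genes (-0.34, edgeR adjusted p = 0.0648). The integrin subunits Itgav and Itgb5, which bind Mfge8, rose. Itgb5 had 51.3 ± 10.7 CPM in ID8-FSHR and 83.2 ± 7.75 CPM in ID8, against 2.16 ± 0.568 CPM in uninjected mice, and Itgav had 230 ± 39.1 CPM in ID8-FSHR and 304 ± 39.5 CPM in ID8, against 79.8 ± 3.99 CPM in uninjected mice. Between the tumour lines 0 of 8 were higher and 2 lower, beside 6.04% and 5.56% of all tested genes. Itgb5 fell by 0.70 on the log2 scale (edgeR adjusted p = 0.0198). Itgb3, at 31.3 ± 6.57 CPM in ID8-FSHR and 59.6 ± 5.55 CPM in ID8, fell by 0.93 (edgeR adjusted p = 0.00113). On the pan-macrophage scale 0 were higher and 1 lower, beside 1.8% and 1.5%. The call of Itgb5 was lost without ID8-FSHR replicate 4 or ID8 replicate 3 or 4, and relative to the pan-macrophage genes (-0.84, edgeR adjusted p = 0.0977). The tumour marker sums given above were lower in ID8-FSHR than in ID8 too, and their part in these integrin levels was not tested.

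Of 10 genes of the engulfment machinery, all tested, 3 were higher and 3 lower for ID8-FSHR versus uninjected and 3 higher and 5 lower for ID8 versus uninjected, at medians of -0.15 and -0.24. On the pan-macrophage scale 5 were higher and 2 lower in each of these comparisons. Of all tested genes, 48.9% were higher and 10.5% lower there for ID8-FSHR versus uninjected, and 56.8% and 8.35% for ID8 versus uninjected. Dock2, the exchange factor of leukocytes that activates Rac, fell to 544 ± 121 CPM in ID8-FSHR and 458 ± 46.4 CPM in ID8, against 1077 ± 28.6 CPM in uninjected mice, and the leukocyte GTPase Rac2 fell to 244 ± 68.5 CPM in ID8-FSHR and 180 ± 23.5 CPM in ID8, against 466 ± 18.4 CPM in uninjected mice (SD, n = 4 each). Trio, an exchange factor for Rac and RhoG, rose to 207 ± 28.9 CPM in ID8-FSHR, against 113 ± 8.23 CPM in uninjected mice (0.88, edgeR adjusted p = 5.00e-06). Gulp1, an engulfment adaptor, had 9.95 ± 3.36 CPM in ID8-FSHR and 20.8 ± 2.64 CPM in ID8, against 6 counts in the 4 uninjected libraries together, and was lower in ID8-FSHR than in ID8 by 1.06 on the log2 scale, a called fall (edgeR adjusted p = 0.0246) that was lost without ID8-FSHR replicate 4 or ID8 replicate 1, 3 or 4, and relative to the pan-macrophage genes (-1.18, adjusted p = 0.0970).

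Of 14 other scavenger receptors, 13 were tested, with 5 higher and 3 lower for ID8-FSHR versus uninjected and 2 higher and 4 lower for ID8 versus uninjected, at medians of 0.00 and -0.14. When scaled to the pan-macrophage genes 7 were higher and 2 lower for ID8-FSHR versus uninjected, beside 48.9% and 10.5% of all tested genes. For ID8 versus uninjected 8 were higher and 1 lower, beside 56.8% and 8.35%. Colec12, a scavenger receptor with a collectin domain, fell to 17.0 ± 3.72 CPM in ID8-FSHR and 24.8 ± 3.54 CPM in ID8, against 101 ± 14.2 CPM in uninjected mice (SD, n = 4 each). Cxcl16, a chemokine that in its membrane form binds oxidised lipoprotein and phosphatidylserine, rose to 48.5 ± 4.84 CPM in ID8-FSHR and 50.5 ± 4.73 CPM in ID8, against 20.8 ± 3.04 CPM in uninjected mice. Scara5, a ferritin receptor, had 36.6 ± 12.7 CPM in ID8-FSHR and 18.7 ± 1.74 CPM in ID8, against 2 counts in the 4 uninjected libraries together. Between the lines, 3 of the 13 were higher and 3 lower for ID8-FSHR versus ID8, where 6.04% of all tested genes were higher and 5.56% lower. On the pan-macrophage scale 1 was higher, Scarb1, and 0 lower. Scara5 was higher by 0.97 on the log2 scale (edgeR adjusted p = 0.0170), and Scarb1, the high-density lipoprotein receptor, was higher by 0.73 (edgeR adjusted p = 0.000636), at 79.4 ± 9.47 CPM in ID8-FSHR and 47.9 ± 1.79 CPM in ID8. Scarf2 was lower, at 5.61 ± 1.21 CPM in ID8-FSHR and 8.61 ± 0.474 CPM in ID8 (-0.62, edgeR adjusted p = 0.0261). Scara5 was at 0.85 (edgeR adjusted p = 0.165) and Scarf2 at -0.76 (edgeR adjusted p = 0.0927) relative to the pan-macrophage genes, neither of them called. The call of Scara5 was also lost without ID8 replicate 1 or 4, and that of Scarf2 without any 1 of 7 tumour libraries, all but ID8-FSHR replicate 1. The other 3 of these 6 were chosen after their values were seen: Cd163, the haemoglobin scavenger receptor, was lower (-1.44, edgeR adjusted p = 0.0300), Colec12 was lower (-0.54, edgeR adjusted p = 0.0383), and Scarb2, a lysosomal membrane protein, was higher (0.35, edgeR adjusted p = 0.0413). The call of Cd163 held under 14 of 22 alternatives, that of Colec12 under 10 and that of Scarb2 under 11. Cd163 was lost without ID8-FSHR replicate 2 or 4 or ID8 replicate 2, 3 or 4, Colec12 without any 1 of 8 libraries (ID8-FSHR replicates 2 to 4, ID8 replicates 1, 3 and 4 and uninjected replicates 2 and 3), and Scarb2 without any 1 of 8 libraries (ID8-FSHR replicates 3 and 4, the 4 ID8 libraries and uninjected replicates 1 and 4).

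Of 9 genes of the low-density lipoprotein receptor family and its chaperone, 8 were tested, with 3 higher and 1 lower for ID8-FSHR versus uninjected and 1 higher and 1 lower for ID8 versus uninjected. Relative to the pan-macrophage genes the counts were 4 higher and 0 lower for ID8-FSHR versus uninjected, beside 48.9% and 10.5% of all tested genes. For ID8 versus uninjected they were 6 higher and 0 lower, beside 56.8% and 8.35%. Vldlr, a relative of Lrp1 that takes up triglyceride-rich lipoproteins, rose to 6.29 ± 1.78 CPM in ID8-FSHR and 6.67 ± 0.677 CPM in ID8, against 0.224 ± 0.0983 CPM in uninjected mice (SD, n = 4 each). Lrpap1, the chaperone of Lrp1, fell with it, by 0.45 on the log2 scale for ID8-FSHR versus uninjected (edgeR adjusted p = 0.000399) and by 0.35 for ID8 versus uninjected (edgeR adjusted p = 0.00265), though relative to the pan-macrophage genes it was 0.05 (edgeR adjusted p = 0.776) for ID8-FSHR versus uninjected and was called higher, at 0.34 (edgeR adjusted p = 0.0354), for ID8 versus uninjected. The fall in ID8 was also not called with library totals alone (-0.16, edgeR adjusted p = 0.0861). Lrp4 was higher in ID8-FSHR, with 9.10 ± 3.26 CPM, than in ID8, with 4.43 ± 1.49 CPM (1.03, edgeR adjusted p = 0.0454). That call was lost relative to the pan-macrophage genes (0.81, edgeR adjusted p = 0.135). It held under 6 of 22 alternatives and was lost without any 1 of 11 libraries, all but ID8-FSHR replicate 1.

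Of 8 nuclear receptor and cholesterol efflux genes that act after engulfment, 1 was higher and 4 lower for ID8-FSHR versus uninjected and 1 was higher and 3 lower for ID8 versus uninjected. Scaled to the pan-macrophage genes, 2 were higher and 1 lower for ID8-FSHR versus uninjected, beside 48.9% and 10.5% of all tested genes. For ID8 versus uninjected 3 were higher and 1 lower, beside 56.8% and 8.35%. Nr1h3, the liver X receptor alpha that senses cholesterol from engulfed cells, rose to 7.39 ± 3.15 CPM in ID8-FSHR and 5.83 ± 1.38 CPM in ID8, against 2.78 ± 0.836 CPM in uninjected mice (SD, n = 4 each). Abca1, the cholesterol exporter that liver X receptors are known to induce, went the other way and fell to 133 ± 28.1 CPM in ID8-FSHR and 143 ± 19.7 CPM in ID8, against 313 ± 76.2 CPM in uninjected mice. Ucp2, a mitochondrial carrier that sustains continued engulfment, fell by 0.86 on the log2 scale for ID8-FSHR versus uninjected and by 0.85 for ID8 versus uninjected (edgeR adjusted p = 0.000143 and 0.000167). Both calls were lost relative to the pan-macrophage genes, at -0.36 (edgeR adjusted p = 0.0943) and -0.15 (edgeR adjusted p = 0.490).

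Of the 6 genes of TAM shedding, feedback and do-not-eat-me signals, 2 were higher (Socs1 and Adam10) for ID8-FSHR versus uninjected and 2 lower (Sirpa and Adam17) for ID8 versus uninjected. On the pan-macrophage scale 4 were higher and 0 lower in each of these comparisons. Of all tested genes, 48.9% were higher and 10.5% lower on that scale for ID8-FSHR versus uninjected, and 56.8% and 8.35% for ID8 versus uninjected. Adam10, a sheddase, had 404 ± 78.1 CPM in ID8-FSHR, against 335 ± 21.6 CPM in uninjected mice (0.27, edgeR adjusted p = 0.0466). Socs1, a feedback inhibitor of cytokine signalling, had 6.25 ± 4.01 CPM in ID8-FSHR, against 2.64 ± 0.654 CPM in uninjected mice (1.24, edgeR adjusted p = 0.0388). The call of Adam10 held under 11 of 22 alternatives and was lost without any 1 of the ID8 or uninjected libraries, and that of Socs1 held under 12 and was lost without ID8-FSHR replicate 2, ID8-FSHR replicate 4 or any 1 of the uninjected libraries. For ID8 versus uninjected the value of Sirpa, the receptor of the do-not-eat-me signal Cd47, was -0.49 and that of the Mertk sheddase Adam17 was -0.33. Sirpa was at 0.19 relative to the pan-macrophage genes and not called (edgeR adjusted p = 0.157), while Adam17 was called higher on that scale, at 0.35 (edgeR adjusted p = 0.0249). The lower call of Adam17 was also lost with library totals alone (-0.14, edgeR adjusted p = 0.225) and without uninjected replicate 4 (-0.30, edgeR adjusted p = 0.05004).

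**Figure D5:**
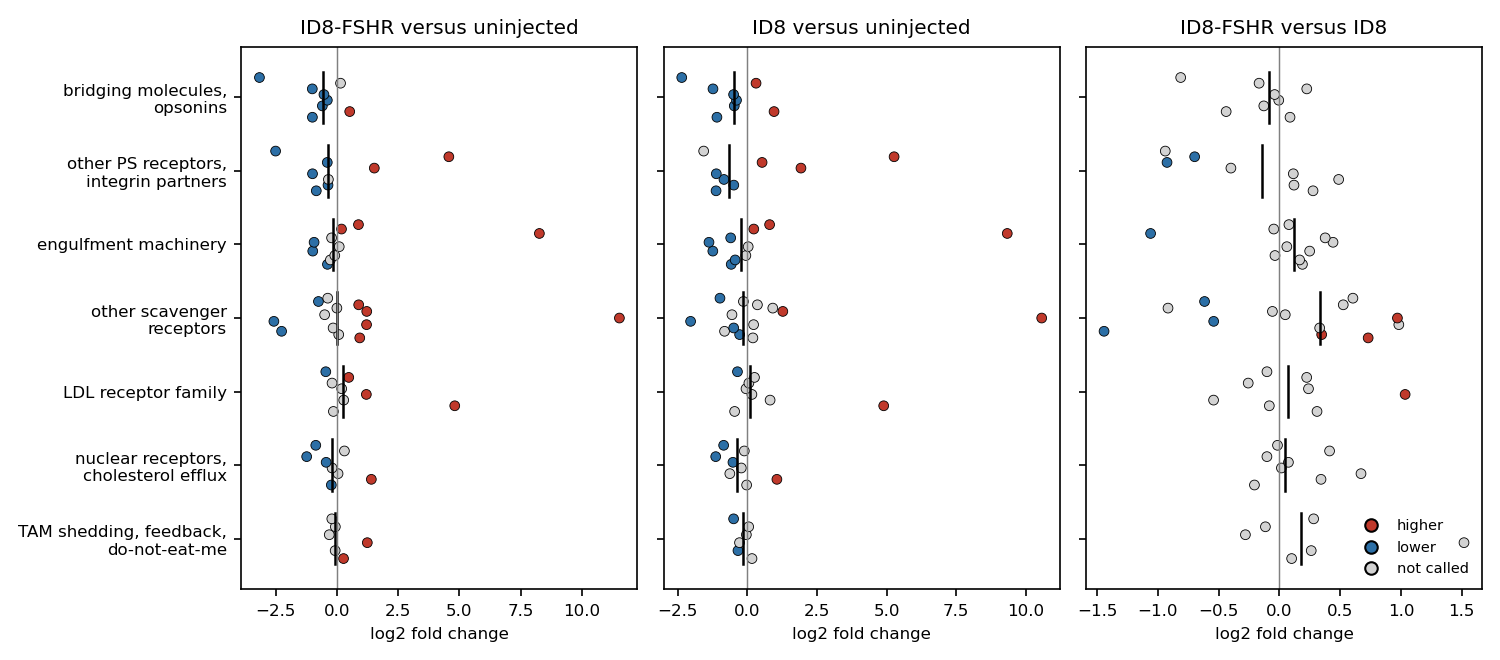
Log2 fold changes (horizontal axes, which differ in range) of the tested genes of the 7 pathway lists in the 3 comparisons, scaled by TMM, 1 point a gene, red where higher, blue where lower and grey where not called by edgeR, with a bar at each list's median. Most lists hold genes on both sides of 0; the points farthest right against uninjected mice are Scara5 and Gulp1, which had 2 and 6 counts there.

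The members lie at these places of GRCm38, by the GENCODE M21 annotation, each value being the sum over the exons of the gene. Mertk (ENSMUSG00000014361.5) spans chr2:128698956-128802894, Axl (ENSMUSG00000002602.16) chr7:25757273-25788705, Tyro3 (ENSMUSG00000027298.17) chr2:119797733-119818104 and Gas6 (ENSMUSG00000031451.6) chr8:13465374-13494490. Marco (ENSMUSG00000026390.7) spans chr1:120474538-120505024, Msr1 (ENSMUSG00000025044.16) chr8:39581685-39642673 and Cd36 (ENSMUSG00000002944.15) chr5:17781690-17888801. Stab1 (ENSMUSG00000042286.13) spans chr14:31139013-31168641, Stab2 (ENSMUSG00000035459.18) chr10:86841198-87008025 and Lrp1 (ENSMUSG00000040249.15) chr10:127538161-127621148. Exons of Stab1 share 112 bases with Nt5dc2 on the other strand, which had 3339 counts in all libraries against 62467 for Stab1. Exons of Stab2 share 141 bases with the antisense gene Gm16268, which had 11 counts against 68 for Stab2, and those of Gas6 share 34 bases with Tmem255b, which had 0 counts. No source used here says whether counting used the strand.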

How the data were processed

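Per the labels, RNA from peritoneal lavage was extracted with a column kit, and libraries were made from 100 ng of RNA after removal of ribosomal RNA. The authors deposited whole-number read counts per gene, which were used as they are. Reads were handled with bcl2fastq 2.20, aligned with STAR 2.7.9a and counted with featureCounts (Subread 1.6.4) on GRCm38.p6, from the submitters' processing notes, which give names but no order. For strandedness and annotation release the sources used here say nothing. Of the deposited counts from 1 to 20, 74.8% were even numbers, and 59.2% of all counts above 0. No label gives the reason, and limits for a count of 0 cover counting error only.

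Groups and replicate numbers came from the labels. All 12 libraries were fitted together in R 4.3.3 with edgeR 4.0.16 (robust quasi-likelihood F test, group as the only term, TMM scaling, edgeR's default filter on low counts), with Benjamini-Hochberg adjustment over 16915 genes at a threshold of 0.05. Intervals are 95% intervals of the fit. Levels per length use the merged exons of GENCODE M21, which matched 55141 of 55401 identifiers without their version. No pair of libraries agreed within sampling noise.

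The 10 members, the 7 pathway lists, the marker lists, the tests and the alternatives were chosen with earlier results of these data known, and the promoter motifs after the values were seen. The text names the members, up to 3 genes a pathway list and comparison with the smallest adjusted p, and the 2 nearest patterns per tested member (mean log2 CPM of at least 3, prior count 2). Pathway genes of that rule left out of the text were not called in the comparison that named them, and 1 gene of nearest pattern is not reported here. The fit was tested on simulated data in which 200 genes were changed in the ID8 group alone, as many up as down. Far more genes were called in the real data, so this simulation cannot check the scaling under such a shift. The alternatives were DESeq2 1.42.0, limma-voom (limma 3.58.1), other scalings and filters, stricter thresholds, a replicate block and leaving out each library in turn.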

Additional observations from a re-analysis of the deposited data

Results flagged for a closer look

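In 7 of 117 combinations of a gene and a group, 4 of them among the 30 of the members, 1 library lay apart from the other 3 of its group. For values with a normal spread chance gives about 1 in 20 such cases. Where only 1 library of a group had any counts, as for Stab2 and Scara5 below, the rule was met in advance. That rate does not apply to them. Stab1 was highest in ID8-FSHR replicate 2 at 34.1 CPM, against 18.7 to 19.9 CPM in the others of its group. Stab2 was at 0.0365 CPM, from 2 counts, in ID8-FSHR replicate 4 and at 0 in the others. Mertk was highest in uninjected replicate 1 at 180 CPM, against 143 to 146 CPM in the others. Marco was lowest in uninjected replicate 2 at 235 CPM, against 317 to 331 CPM in the others. Outside the members, Lrp4 was lowest in ID8-FSHR replicate 1 at 4.24 CPM, against 10.4 to 11.2 CPM, and Adam10 was highest in ID8-FSHR replicate 2 at 521 CPM, against 352 to 373 CPM. Scara5 was at 0.0394 CPM in uninjected replicate 1 and at 0 in the other uninjected libraries.

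The effects of the 2 tumour lines, each set against the uninjected mice, differed by the test of ID8-FSHR versus ID8 for Stab1 (log2 fold change -0.94) and for 10 of the 61 tested pathway genes. These were Cd163 (-1.44), Gulp1 (-1.06), Itgb3 (-0.93), Itgb5 (-0.70), Scarf2 (-0.62), Colec12 (-0.54), Scarb2 (0.35), Scarb1 (0.73), Scara5 (0.97) and Lrp4 (1.03). Of the 61, 6.56% were higher and 9.84% lower, beside 6.04% and 5.56% of all tested genes. Relative to the pan-macrophage genes 1 was higher and 1 lower (1.64% each), beside 1.8% and 1.5% of all tested genes. The tumour marker sums were also lower in the ID8-FSHR libraries, and their part was not tested. Without ID8-FSHR replicate 2, the library that stood apart, Stab1 was at -1.18 (edgeR adjusted p = 0.0169), Lrp4 at 0.94 (adjusted p = 0.0871), Scarf2 at -0.57 (adjusted p = 0.0559), Colec12 at -0.47 (adjusted p = 0.0975) and Cd163 at -1.31 (adjusted p = 0.124).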

How the results depend on the processing

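Of 594 values of the members under the alternatives, 559 kept their direction and their side of the threshold. Axl, Tyro3, Cd36 and Stab1 kept both against uninjected mice under all 22 alternatives, in both comparisons. Scaling to the pan-macrophage genes left 5 members called for ID8 versus uninjected, and for ID8-FSHR versus ID8 it left 557 genes and 2 pathway genes. It turned the sign of Lrp1 (0.22), Sirpa (0.19), Adam17 (0.35) and Lrpap1 (0.34) for ID8 versus uninjected, of Lrpap1 (0.047) for ID8-FSHR versus uninjected, and of the uncalled Mertk (-0.085), Axl (-0.085) and Msr1 (-0.044) for ID8-FSHR versus ID8. Requiring a log2 fold change of at least 1 left 4 members, 5409 genes and 16 pathway genes for ID8 versus uninjected, 5365 genes and 16 pathway genes for ID8-FSHR versus uninjected, and 0 members, 672 genes and 3 pathway genes for ID8-FSHR versus ID8. For ID8-FSHR versus ID8, DESeq2 called 2 members, 3116 genes and 16 pathway genes, an adjusted p under 0.01 left 0 members, 707 genes and 2 pathway genes, and 0 members were called with no filter or with only the groups compared.

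Leaving out 1 library moved the calls for ID8-FSHR versus ID8 to 0 to 2 members, 961 to 3136 genes (without ID8 replicate 4 and without ID8-FSHR replicate 1) and 2 to 22 pathway genes (without the same libraries). The sign of uncalled members turned for Mertk (range -0.046 to 0.24) and Tyro3 (-0.14 to 0.13) without ID8-FSHR replicate 2, for Tyro3 (0.053) without ID8 replicate 4 and for Cd36 (-0.14 to 0.069) without ID8 replicate 3. Same-numbered libraries shared only a number, with correlations of their deviations of -0.114 to 0.185. A replicate block left 0 members called for ID8-FSHR versus ID8, with Stab1 at an adjusted p of 0.0592 by edgeR, and 8 members for ID8 versus uninjected and 9 for ID8-FSHR versus uninjected. The cause of these shifts was not tested. Depth limits Stab2, and the uninjected levels of Tyro3, Gulp1 and Scara5.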
